A study of Canis lupus familiaris with 12 samples.

Results

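DUXC-ALT, an isoform of the canine double homeobox factor DUXC, was compared with a luciferase control in immortalized canine myoblasts by RNA sequencing. The comparison took in 6 of the 12 samples of the series, with 3 DUXC-ALT and 3 luciferase libraries chosen by the insert named in each sample's genotype label. All 15628 gene rows and all 683 repeat rows of the count tables that hold these 6 libraries were used. All cells carried pCW57.1, a lentiviral vector that drives its insert in the presence of doxycycline, and the insert was DUXC-ALT or luciferase. DUXC and human DUX4, each in 3 further libraries on the same vector, were used only where DUXC-ALT was set against them. Doxycycline at 1 ug/ml for 24 h is the treatment in the protocol of every sample, but the luciferase samples are also tagged as untreated, while the DUXC-ALT samples are tagged with the drug. An effect of the insert and an effect of doxycycline therefore cannot be told apart in the comparison with luciferase. DUXC-ALT, DUXC and DUX4 samples share the doxycycline tag. Nothing in the labels says that replicates were separate cultures or separate transductions, so each p-value is set against a spread between libraries that may be purely technical.

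Double homeobox factors of the DUX4 family bind DNA through a pair of homeodomains and are normally active in the early embryo, where they switch on genes and retroviral repeats of the cleavage stage. Human DUX4 is best known in skeletal muscle, where its misexpression causes facioscapulohumeral muscular dystrophy. DUXC is the DUX4-like gene of the dog and some other mammals, and the labels call DUXC-ALT by name without saying how its protein differs. The sample titles use other names, cDUXCinter for the DUXC-ALT libraries and cDUXCintac for the DUXC libraries.

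The tables as used here pair no row with a gene or repeat name, so rows are cited by their number in the DUXC-ALT table. The row of the expressed factor, the known targets of DUX4 and the markers of myoblasts could not be looked up, and neither the labels of the libraries nor the cell type was checked against them. Gene counts per library were 18665778, 17246164 and 20590325 in luciferase and 19992969, 17300128 and 18685216 in DUXC-ALT, and repeat counts ran from 524876 to 729306. Counts correlated on a log scale at 0.998 between DUXC-ALT libraries, at 0.997 to 0.998 between luciferase libraries and at 0.984 to 0.987 between the groups, across genes, which are not independent replicates. No pair of libraries in a group was a copy of another, since chi-square per degree of freedom between their counts was 1.53 to 2.58, where 1 is pure sampling noise.

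DUXC-ALT changed many gene rows slightly and few strongly, and the strong changes were mostly losses. Of 12821 rows tested, 3283 (25.6%) were raised and 3292 (25.7%) were lowered relative to luciferase, by edgeR's quasi-likelihood test with Benjamini-Hochberg adjustment at 0.05. The median change was a log2 fold of 0.26 in the raised rows and -0.35 in the lowered rows. These bulk counts cannot tell a fall in transcript per cell from fewer cells of a type that carries the transcript. Scaling on total gene counts in place of TMM gave 4644 raised and 2458 lowered rows. The TMM factors, which averaged 1.03 in DUXC-ALT and 0.975 in luciferase, shift all log2 folds by 0.0739 from those on total counts, and they hold the median row at 0.00.

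The excess of losses grew with the size of the change. More than 1.2-fold, 1595 rows rose and 2119 fell. More than 2-fold, 108 rows (0.842%) rose and 467 (3.64%) fell, and more than 8-fold, 2 rose and 41 fell. A test of the size itself, edgeR's glmTreat against a fold of 1.5 with Benjamini-Hochberg adjustment, called 152 rows (1.19%) raised and 512 (3.99%) lowered. In counts per 1000000 gene counts (CPM) scaled by TMM, all 3 DUXC-ALT libraries lay above all 3 luciferase libraries in 3642 rows (28.4%) and below them in 3569 (27.8%). Of the called rows, 3086 of the 3283 raised and 3081 of the 3292 lowered had groups of libraries that did not overlap.

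**Figure D1:**
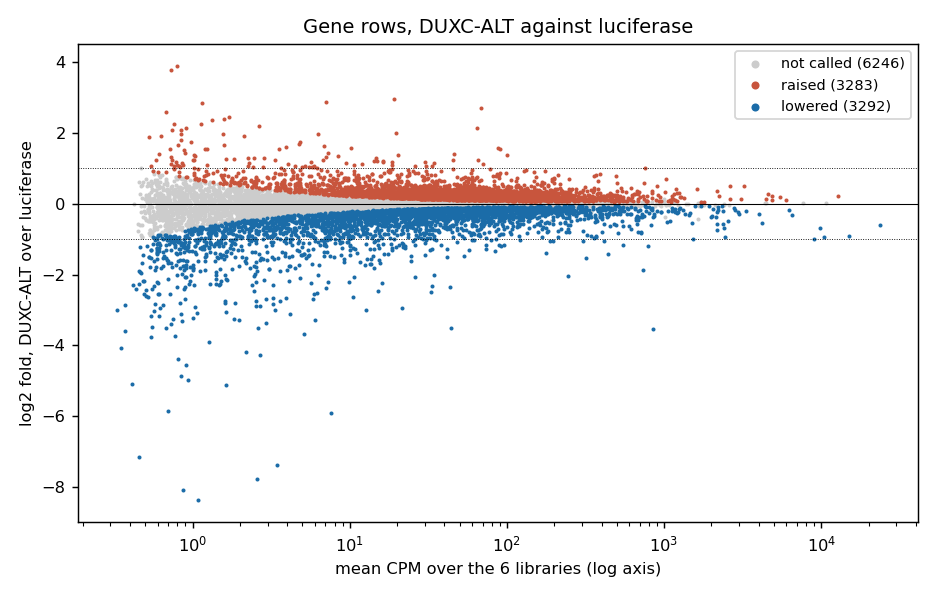
Each point is a gene row, placed by its mean CPM over the 6 libraries on a log axis and its fitted log2 fold of DUXC-ALT over luciferase, and coloured by its call in edgeR's quasi-likelihood test. Dotted lines mark a 2-fold change. Points below 0 reach farther than points above 0, above all at low levels, and 467 gene rows fell more than 2-fold where 108 rose.

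Low and high gene rows differed in direction. The tested rows were split into 3 equal groups by mean CPM over the 6 libraries. That mean includes the DUXC-ALT libraries, so a row's own rise or fall can move it up or down a group. Row 5870 averaged 14.9 CPM in luciferase, within the range of the middle group, but its fall placed it in the lowest. The split by direction is therefore partly built from the changes it counts. In the lowest group, from 0.328 to 10.8 CPM, 478 of 4274 rows (11.2%) were raised and 1047 (24.5%) were lowered. In the middle group, up to 43.7 CPM, 1183 of 4273 rows (27.7%) were raised and 1013 (23.7%) were lowered. In the highest group 1622 of 4274 rows (38%) were raised and 1232 (28.8%) were lowered. The lowest group held 385 of the 467 falls past 2-fold and 82 of the 108 rises. On total counts the excess of losses in the lowest group was smaller, with 665 rows raised and 895 lowered. DESeq2, which differs in its test as well as its scaling, gave 263 and 726. In the middle and highest groups total counts gave 1732 raised against 692 lowered and 2247 against 871.

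**Figure D2:**
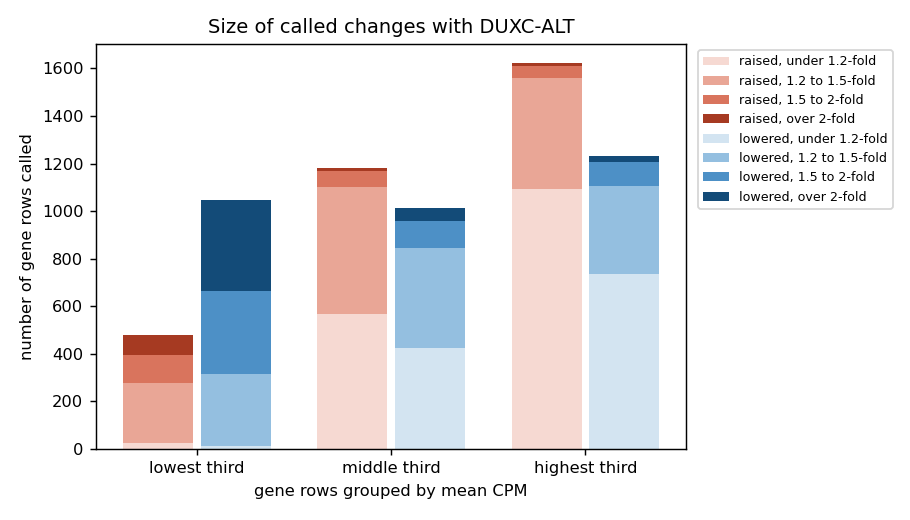
Bars give the number of gene rows called raised or lowered with DUXC-ALT in each of 3 equal groups of rows by mean CPM, and the shades split each bar by the size of the fitted fold. Most calls of the highest group are small, while the lowest group holds 385 of the 467 falls of more than 2-fold.

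The strongly changed rows held few of the reads. Rows raised more than 2-fold took 0.110% of gene counts in luciferase and 0.281% in DUXC-ALT, as means of 3 libraries, and rows lowered more than 2-fold took 1.24% and 0.451%. Counted at any size, the raised rows went from 29.9% ± 0.382 of gene counts in luciferase to 37.1% ± 0.0380 in DUXC-ALT (SD, n = 3), and the lowered rows from 41.6% ± 0.399 to 33.0% ± 0.0722. These shares describe rows chosen by their own change and are no test of it.

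Among low rows that rose, the largest changes began from a few reads. The 5 largest non-overlapping rises of each group of rows were taken among called rows that averaged at least 1 CPM in the group of libraries with the higher level. Row 8680 had 2, 1 and 2 reads in luciferase replicates 1 to 3 and 20, 29 and 34 in DUXC-ALT replicates 1 to 3, a log2 fold of 3.90 ± 0.48 (SE, adjusted p = 8.79e-11 in edgeR's quasi-likelihood test). Row 12108 had 1, 2 and 2 reads in luciferase and 31, 24 and 22 in DUXC-ALT. In both rows every DUXC-ALT library was far above every luciferase library, but the luciferase level rests on 5 reads. Row 5752 was better covered, at 1.93, 1.10 and 1.75 CPM in luciferase and 13.4, 12.0 and 12.1 CPM in DUXC-ALT, a log2 fold of 2.88 ± 0.14 (adjusted p = 5.10e-30). Rows 14018 and 12701 completed the 5, at log2 folds of 2.83 and 2.60. No row that was at 0 in all 3 luciferase libraries reached 1 CPM in every DUXC-ALT library.

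The 1047 lowered rows of the lowest group had a median log2 fold of -0.80, and 39 of them fell more than 8-fold. The 5 largest non-overlapping falls among them went to 0 or nearly so. Row 5572 had 33, 44 and 45 reads in luciferase and none in any DUXC-ALT library, which is at least 40.3-fold lower when 3 counts over the group stand for the 0. Row 498 had 32, 29 and 38 reads in luciferase and none in DUXC-ALT, at least 32.7-fold lower by the same floor. No other row fell to 0 in all DUXC-ALT libraries from at least 1 CPM in every luciferase library. Row 304 went from 117, 77 and 95 reads to 0, 0 and 1. Its DUXC-ALT level was 0.00349 of the luciferase level (95% exact Poisson interval 8.8e-05 to 0.0196, counting error only). Row 11307 went from 133, 138 and 110 reads to 0, 1 and 1, a ratio of 0.0053 (95% exact Poisson interval 0.000639 to 0.0193). Row 5870 was the best covered of the 5, with 312, 272 and 252 reads in luciferase and 7, 5 and 2 in DUXC-ALT, and it fell by 5.93 ± 0.21 on the log2 scale (adjusted p = 4.21e-34 in edgeR's test). In all 5 rows the highest DUXC-ALT library was far below the lowest luciferase library.

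In the middle group of rows the largest rise matched the largest fall in size, and the rises after it were smaller than the falls. Row 3321 went from 4.88, 3.60 and 4.03 CPM in luciferase to 38.4, 29.3 and 34.5 CPM in DUXC-ALT, a log2 fold of 2.96 ± 0.11 (SE, adjusted p = 5.20e-23 in edgeR's test). Row 6975 went from 6.70, 7.71 and 8.06 CPM to 31.0, 36.3 and 28.4 CPM, a log2 fold of 2.01 ± 0.09. These 2 rows stood apart from the next 3 rises, rows 5134, 8879 and 13035, which had log2 folds of 1.38, 1.30 and 1.22. Row 8879 was nearly level within DUXC-ALT, at 21.1, 21.0 and 21.4 CPM, against 6.75, 8.87 and 8.74 CPM in luciferase.

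The 5 largest falls of the middle group lay closer together. Row 679 went from 23.7, 20.6 and 23.1 CPM in luciferase to 2.90, 2.95 and 3.05 CPM in DUXC-ALT and fell by 2.99 ± 0.11 on the log2 scale (SE, adjusted p = 8.22e-40 in edgeR's test). Row 12130 went from 37.4, 38.5 and 36.9 CPM to 3.80, 5.66 and 5.89 CPM and fell by 2.96 ± 0.09. Both kept a low level in every DUXC-ALT library, below the luciferase range as the rule for naming rows required. Rows 9695, 8256 and 1685 fell by 2.51, 2.48 and 2.35. Row 1685 was the most abundant of these, at 79.0, 66.2 and 71.1 CPM in luciferase and 14.1, 14.5 and 16.1 CPM in DUXC-ALT.

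In the highest group of rows by mean CPM over the 6 libraries, 2 rises stood out. Row 10313 went from 14.4, 18.8 and 18.4 CPM in luciferase to 115.3, 122.4 and 120.2 CPM in DUXC-ALT, a log2 fold of 2.72 ± 0.06 (SE, adjusted p = 1.41e-43 in edgeR's test). Row 3283 went from 18.6, 26.6 and 23.8 CPM to 105.8, 107.4 and 107.7 CPM, a log2 fold of 2.15 ± 0.07 (adjusted p = 1.54e-13). Rows 4088, 9812 and 13602 followed at log2 folds of 1.57, 1.54 and 1.40. In all 5 of these rows luciferase replicate 1 was the lowest library, and in row 9812 the luciferase range, from 38.5 to 50.7 CPM, was wider than that of DUXC-ALT, from 135.0 to 136.4 CPM. Rows 10313, 3283, 4088 and 13602 averaged 17.2, 23.0, 42.5 and 24.4 CPM in luciferase. That is below the 43.7 CPM at which the highest group begins, so their levels in DUXC-ALT placed them in it.

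The largest falls at high level were in a pair of neighbouring rows of the table. Row 412 had 1435, 1632 and 1631 CPM in luciferase and 143.6, 135.3 and 142.7 CPM in DUXC-ALT, a level 11.7-fold lower (log2 fold -3.55 ± 0.06 SE, adjusted p = 1.78e-10 in edgeR's test). Row 413 had 72.6, 85.6 and 83.2 CPM in luciferase and 7.55, 7.63 and 7.06 CPM in DUXC-ALT, and it fell by 3.51 ± 0.07 (adjusted p = 9.80e-49). The rows beside them, looked up after these values were seen, did not move as far. Row 411 fell by 0.96 ± 0.20 (adjusted p = 4.31e-05), from 3.32, 2.49 and 3.01 CPM to a range of 1.45 to 1.82 CPM. Row 414 rose by 0.13 ± 0.03 on the log2 scale. How the authors' counting treated reads of overlapping genes or strand is not given in the sources used here, so rows 412 and 413 may share reads.

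The other large falls at high level were smaller but as even between libraries. Row 8402 went from 1176, 1142 and 1095 CPM in luciferase to 327.5, 331.3 and 314.8 CPM in DUXC-ALT and fell by 1.88 ± 0.03 on the log2 scale (SE, adjusted p = 9.82e-66 in edgeR's test). Row 8059 went from 416.4, 375.9 and 375.7 CPM to 103.3, 99.1 and 96.4 CPM and fell by 2.04 ± 0.04. Row 13337 went from 473.1, 458.1 and 473.5 CPM to 169.8, 172.3 and 170.9 CPM and fell by 1.53 ± 0.03. None of the 3 had a DUXC-ALT library within the luciferase range, as the rule for naming rows required.

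**Figure D3:**
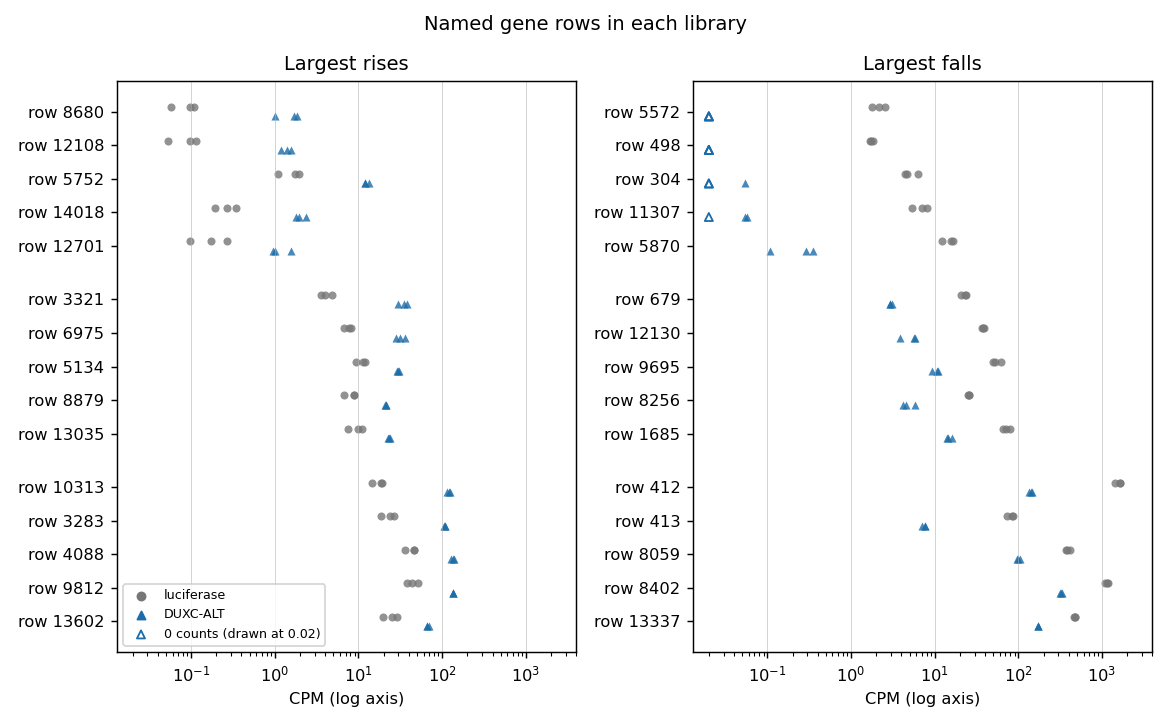
CPM of each named gene row in each of the 3 luciferase libraries (circles) and 3 DUXC-ALT libraries (triangles) on a log axis, for rises and falls in the lowest, middle and highest groups of rows. Libraries without a count are open symbols at the left edge. The groups do not overlap in any row shown, as the rule for naming rows required, and libraries of a group lie close together except at the lowest levels.

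Of the 5 most abundant gene rows, 3 fell and 1 rose. Row 8332, the most abundant, went from 28445, 27205 and 28538 CPM in luciferase to 19606, 19325 and 19390 CPM in DUXC-ALT. Row 8583 went from 19654, 19138 and 18975 CPM to 10589, 10711 and 10736 CPM. Row 9880 went from 13431, 13307 and 13210 CPM to 7419, 7206 and 7501 CPM. The log2 folds were -0.60, -0.92 and -0.93, and the fall of row 8332 did not pass the test of size against 1.5-fold (adjusted p = 0.859 in edgeR's glmTreat). Row 12094 rose by 0.22, and row 2618, from 10089 to 10433 CPM in luciferase and from 11021 to 11126 CPM in DUXC-ALT, was not called (log2 fold 0.03, adjusted p = 0.242 in edgeR's test). On total counts row 2618 was called, at a log2 fold of 0.11 (adjusted p = 2.41e-05 in edgeR's test). The 5 rows with the most counts in a library took 8.42% ± 0.144 of gene counts in luciferase and 6.32% ± 0.0280 in DUXC-ALT (SD, n = 3). An exact 2-sided permutation test gave p = 0.1, the smallest that 3 against 3 libraries allow, and 0.2 after adjustment over 4 such tests.

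DUXC-ALT was then set against DUXC and human DUX4, which share its vector and doxycycline tag. Rows of the tables were joined through their luciferase counts, which left 14736 gene rows with at least 7 luciferase reads, so rows nearly silent in luciferase are outside these comparisons. Of 13148 rows tested, 5078 (38.6%) were higher and 5022 (38.2%) lower in DUXC-ALT than in DUXC. Of 13157 tested against DUX4, 4972 (37.8%) were higher and 4983 (37.9%) lower. The large differences were mostly lower levels in DUXC-ALT. More than 2-fold, 468 rows were higher and 1877 lower than in DUXC, and 239 and 1937 than in DUX4. More than 8-fold, the counts were 0 and 380 against DUXC and 1 and 423 against DUX4. In their own comparisons with luciferase, DUXC raised 38.9% and lowered 37.4% of tested rows and DUX4 raised 38.4% and lowered 35.8%. Their large changes were mostly rises. More than 2-fold, DUXC raised 2207 of 13693 rows and lowered 681, and DUX4 raised 2105 of 13629 and lowered 615. With DUXC-ALT, 108 of 12821 rows rose more than 2-fold and 467 fell. These fits also took in rows with fewer than 7 luciferase reads. The 3 comparisons with luciferase use the same 3 luciferase libraries, so only the direct tests between factors are read as differences between them.

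Some rows responded to DUXC-ALT more than to either of the other factors. Row 5752, at 12.0 to 13.4 CPM in DUXC-ALT, averaged 5.30 ± 0.606 CPM in DUXC and 2.91 ± 0.262 CPM in DUX4 (SD, n = 3). DUXC-ALT exceeded DUXC by a log2 fold of 1.21 (adjusted p = 1.41e-15) and DUX4 by 2.02 (adjusted p = 3.12e-38) in edgeR's direct tests. Row 9812 averaged 41.4 CPM in DUXC, where its log2 fold over luciferase of -0.14 did not pass the test (adjusted p = 0.193 in edgeR's test), and 77.5 CPM in DUX4. DUXC-ALT exceeded these by 1.69 and 0.73. Row 5134 likewise stood higher in DUXC-ALT than in DUXC, by 0.65, and than in DUX4, by 0.87.

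Row 8879 moved in opposite directions in the canine isoforms. DUXC-ALT raised it by 1.30 over luciferase on the log2 scale, whereas DUXC lowered it to 5.91 ± 0.209 CPM (SD, n = 3), a log2 fold of -0.50 (adjusted p = 2.52e-04 in edgeR's test). Its level in DUX4 averaged 7.73 CPM and did not pass the test against luciferase (log2 fold -0.08, adjusted p = 0.52 in edgeR's test). The direct difference between DUXC-ALT and DUXC was 1.81 ± 0.09 (SE, adjusted p = 2.37e-27 in edgeR's test).

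Other rises were smaller with DUXC-ALT than with another factor. Row 10313 averaged 297.8 CPM in DUXC and 66.7 CPM in DUX4, so that DUXC-ALT was lower than DUXC by a log2 fold of -1.35 and higher than DUX4 by 0.76. Row 3283 averaged 188.3 CPM in DUXC and 47.5 CPM in DUX4, with direct log2 folds of -0.84 and 1.09. Both rows were ordered DUXC, DUXC-ALT, DUX4. Row 13602 averaged 672.0 CPM in DUX4 and 76.3 CPM in DUXC against 66.1 to 70.1 CPM in DUXC-ALT, which put DUXC-ALT below DUX4 by a log2 fold of -3.40 and below DUXC by -0.20. Row 3321 averaged 67.3 CPM in DUX4 and 29.3 CPM in DUXC, and DUXC-ALT was below DUX4 by -1.05. Row 4088 averaged 193.8 CPM in DUX4, and DUXC-ALT was below DUX4 by -0.62. Its difference from DUXC did not pass the threshold (log2 fold -0.01, adjusted p = 0.798 in edgeR's test).

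The neighbouring rows 412 and 413 were called in opposite directions with DUXC-ALT and with DUX4. Row 412 averaged 477.1 ± 12.7 CPM in DUXC and 2677 ± 31.3 CPM in DUX4 (SD, n = 3), so it fell with both canine factors and rose with DUX4. The log2 folds over luciferase were -3.55 with DUXC-ALT, -1.76 with DUXC and 0.76 with DUX4. Row 413, which averaged 25.2 CPM in DUXC and 135.7 CPM in DUX4, had log2 folds of -3.51, -1.72 and 0.74. In direct edgeR tests DUXC-ALT lay below DUX4 by -4.33 ± 0.02 and -4.27 ± 0.06 (SE), and below DUXC by -1.79 in both rows.

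Row 498, at 0 in every DUXC-ALT library, had 137, 155 and 100 reads in DUXC replicates 1 to 3 and 23, 17 and 25 in DUX4 replicates 1 to 3. DUXC raised it from 1.75 CPM in luciferase to 7.25 ± 1.19 CPM (SD, n = 3, adjusted p = 1.47e-15 in edgeR's test), and its DUXC level was at least 136-fold above that in DUXC-ALT, with 3 counts over the group in place of the 0. With DUX4 it averaged 1.33 ± 0.357 CPM and did not pass the test against luciferase (log2 fold -0.43, adjusted p = 0.118 in edgeR's test). Row 5572, the other row at 0, kept 3 reads in DUXC and 8 in DUX4 over their 3 libraries. Row 304 kept 4 reads in each, and row 11307 kept 2 in DUXC and 22 in DUX4. Row 5870 kept 24 reads in DUXC and 142 in DUX4, against 14 in DUXC-ALT.

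Falls at middle and high level had no single order of the factors. Rows 679 and 12130 fell farther with DUXC-ALT than with DUXC, by direct log2 folds of -1.14 and -1.06, and than with DUX4, by -1.84 and -2.35. Row 9695 fell less with DUXC-ALT, whose level exceeded that in DUXC by 0.36 and that in DUX4 by 0.94. Row 1685 stood below DUXC by -0.77 and above DUX4 by 1.68. Row 8256 did not differ from DUXC past the threshold (log2 fold -0.23, adjusted p = 0.124 in edgeR's test), and row 8059 did not differ from DUX4 (log2 fold 0.07, adjusted p = 0.0752 in edgeR's test) but exceeded DUXC by 0.85. Without DUXC-ALT replicate 2 row 8256 was lower than in DUXC, by -0.35 (adjusted p = 0.0323 in edgeR's test). Without DUXC-ALT replicate 3 or DUX4 replicate 2 row 8059 was higher than in DUX4, by 0.10 (adjusted p = 0.0193 and 0.0187 in edgeR's test).

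The most abundant rows also differed between factors. Row 8332 had a log2 fold over luciferase of -0.60 with DUXC-ALT, -0.61 with DUXC and -1.37 with DUX4, and its direct difference from DUXC was 0.01 (adjusted p = 0.623 in edgeR's test). Row 2618, not called with DUXC-ALT, had log2 folds of -0.69 with DUXC and -0.57 with DUX4, and DUXC-ALT lay above them by 0.72 and 0.58. Row 8583 fell farther with DUXC-ALT, which lay below DUXC by -0.32 and below DUX4 by -0.75.

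**Figure D4:**
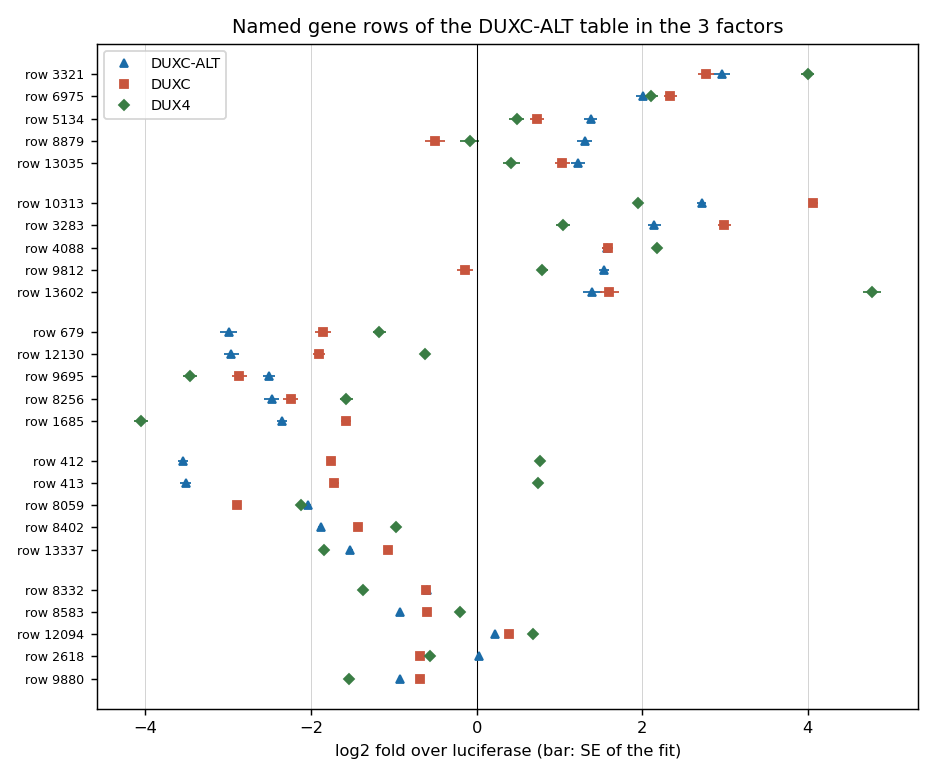
Fitted log2 fold over luciferase of the named gene rows of the middle and highest groups and the most abundant rows with DUXC-ALT (triangles), DUXC (squares) and DUX4 (diamonds), with bars for the standard error. Rows of the lowest group are left out, and all 3 factors are measured against the same 3 luciferase libraries. Rows 412 and 413 lie left of 0 with both canine factors and right of 0 with DUX4.

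Repeat transcripts, counted per repeat row and scaled by the gene counts of the same libraries, changed little with DUXC-ALT, and most of the calls were falls. Of 554 repeat rows tested, 10 (1.81%) were raised and 70 (12.6%) were lowered in edgeR's quasi-likelihood test with Benjamini-Hochberg adjustment. None rose more than 2-fold and 8 (1.44%) fell more than 2-fold, all of them in the lowest group of repeat rows by level, from 0.438 to 2.73 CPM of gene counts. The test of size against 1.5-fold called 0 rows raised and 1 (0.181%) lowered. At an unadjusted p under 0.05 the quasi-likelihood test gave 140 rows in all. DESeq2 gave 4 raised and 38 lowered rows and none past 2-fold. It gave an adjusted p to only 233 of the 683 repeat rows, and rows without one could not be called. All 3 DUXC-ALT libraries lay above all luciferase libraries in 40 rows (7.22%) and below them in 110 (19.9%).

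The excess of lowered repeat rows depended on the scaling, and the number of calls also depended on single libraries. With TMM scaling computed on the repeat counts themselves, 19 rows were raised and 27 lowered, and with total gene counts, an alternative chosen after the data were seen, 18 and 27. Without luciferase replicate 1, luciferase replicate 3 or DUXC-ALT replicate 1, the lowered rows numbered 46, 44 and 39, and the raised rows 5 in each case. Without DUXC-ALT replicate 2 the raised rows numbered 3. Whichever library was left out, lowered rows (39 to 83) outnumbered raised rows (3 to 12).

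Of the rises, row 248 was the clearest, at 16.0, 14.6 and 15.5 CPM of gene counts in luciferase and 22.7, 24.2 and 25.0 CPM in DUXC-ALT. Its log2 fold was 0.57 ± 0.08 (SE, adjusted p = 5.40e-10 in edgeR's test), with no overlap between the groups. Row 163, named after its values were seen, went from 24.2, 28.5 and 27.9 CPM to 33.8, 33.9 and 37.1 CPM, a log2 fold of 0.31 (adjusted p = 1.65e-04 in edgeR's test). Row 406 had the largest rise, a log2 fold of 0.65 ± 0.22, from 1.07, 1.51 and 1.17 CPM to 1.75, 2.25 and 2.19 CPM (adjusted p = 0.0281 in edgeR's test). The remaining raised rows, 17, 113, 459, 514, 530, 554 and 646, had log2 folds from 0.15 to 0.39. Rows 248 and 163 were called with each library left out in turn, whereas the other 8 raised rows each lost the call without at least 1 library. For row 406 the adjusted p was 0.0907 to 0.148 in edgeR's test without luciferase replicate 1, luciferase replicate 3, DUXC-ALT replicate 2 or DUXC-ALT replicate 3.

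Of the falls, row 67 was the largest among rows that averaged at least 20 counts in the higher group. It went from 4.29, 4.17 and 3.25 CPM in luciferase to 0.900, 1.97 and 1.23 CPM in DUXC-ALT and fell by 1.60 ± 0.19 on the log2 scale (SE, adjusted p = 4.66e-12 in edgeR's test). Row 42 went from 4.61, 4.23 and 3.74 CPM to 2.95, 2.31 and 2.35 CPM and fell by 0.78 ± 0.16 (adjusted p = 1.18e-04). In both rows the highest DUXC-ALT library lay below the lowest luciferase library. Rows 61, 404 and 72 fell by 1.29, 1.11 and 0.85. Row 72 lost the call whichever library was left out, with adjusted p from 0.0543 to 0.112 in edgeR's test, and the other 4 kept it.

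The repeat total depended on 1 row. Libraries of DUXC-ALT held 3.23, 3.52 and 2.81 repeat counts per 100 gene counts and luciferase libraries held 3.46, 3.47 and 3.54 (means 3.19 ± 0.358 and 3.49 ± 0.0447, SD, n = 3). The groups overlapped, and an exact 2-sided permutation test gave p = 0.3. Without DUXC-ALT replicate 2 the difference of the means went from -0.305 to -0.472, and without DUXC-ALT replicate 3 to -0.116. Row 311, which alone held 44.6% ± 0.662 of repeat counts in luciferase and 37.9% ± 4.83 in DUXC-ALT, had 15160, 15522 and 15980 CPM in luciferase and 12665, 14781 and 9156 CPM in DUXC-ALT. Its log2 fold of -0.42 ± 0.19 did not pass the test (adjusted p = 0.288 in edgeR's test), and the DUXC-ALT libraries spread far more widely than the luciferase libraries. Per 100 gene counts the row averaged 1.56 ± 0.0411 in luciferase and 1.22 ± 0.284 in DUXC-ALT (SD, n = 3), with every DUXC-ALT library below every luciferase library. The exact 2-sided permutation test gave p = 0.1, the smallest possible, and 0.2 after adjustment over the 4 such tests. Without DUXC-ALT replicate 2 the row was lowered at a log2 fold of -0.59 (adjusted p = 0.00301), and without DUXC-ALT replicate 3 at -0.26 (adjusted p = 5.98e-04, both in edgeR's test). With row 311 left out, the repeat total was 1.96, 2.04 and 1.89 per 100 gene counts in DUXC-ALT and 1.94, 1.92 and 1.94 in luciferase (exact permutation p = 0.7). The other abundant repeat rows, 625, 300, 620 and 211, had log2 folds from -0.09 to 0.08, and none was called. Row 625 varied most, at 994.0, 1644 and 760.5 CPM in DUXC-ALT against 967.6 to 1119 CPM in luciferase.

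**Figure D5:**
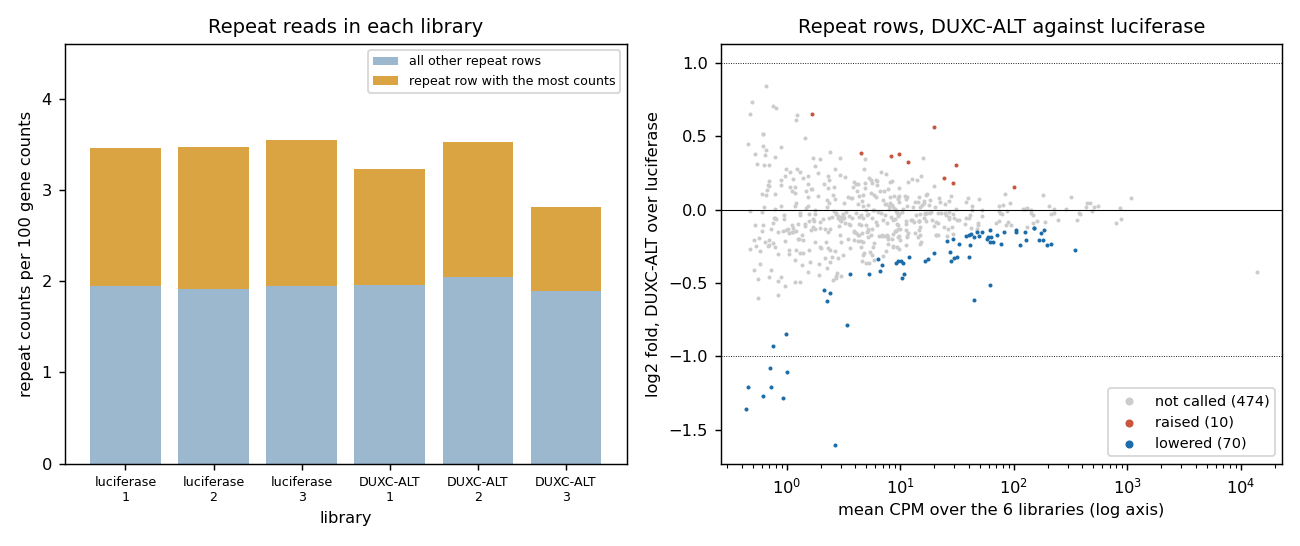
Left, repeat counts per 100 gene counts in each of the 6 libraries, stacked as the repeat row with the most counts and all other rows. Right, fitted log2 fold of DUXC-ALT over luciferase for each tested repeat row against its mean CPM on a log axis, coloured by call. The stack of other rows stays between 1.89 and 2.04 in all 6 libraries, while the row with the most counts falls to 0.916 in DUXC-ALT replicate 3.

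Repeat levels with DUXC-ALT were far below those with the other factors. Of 603 joined repeat rows tested, 13 (2.16%) were higher and 513 (85.1%) lower in DUXC-ALT than in DUXC by edgeR's quasi-likelihood test on gene-based library sizes. Against DUX4, 4 of 608 rows (0.658%) were higher and 557 (91.6%) lower. Compared with luciferase on gene-based library sizes, DUXC raised 500 of 605 repeat rows and lowered 17, with a median log2 fold of 0.80. DUX4 raised 564 of 617 and lowered 7, with a median of 1.21. The median with DUXC-ALT was -0.07. Row 248, which rose with DUXC-ALT to 22.7 to 25.0 CPM, averaged 53.9 CPM in DUXC and 53.6 CPM in DUX4. Row 67, which fell with DUXC-ALT to 0.900 to 1.97 CPM, averaged 3.43 CPM in DUXC and 5.32 CPM in DUX4. Scaled within the repeat counts, 195 rows were higher and 194 lower in DUXC-ALT than in DUXC, and 221 and 213 than in DUX4. The one-sided result is thus a difference in repeat counts relative to gene counts, and scaling repeats on themselves centres it away.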

How the data were processed

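Whole-number read counts per gene row and repeat row were used as the authors deposited them, from 6 of 12 deposited tables. The other 6, which hold values normalized by the authors, were not used. The submitters' processing notes list Bowtie2 2.2.6, TopHat2 2.1.0, CASAVA, DESeq2 and canFam3 without saying what each was used for, and the counting tool is not given in the sources used here. The smallest row total was 7 counts in each table. Libraries were pooled 14-plex per the labels' protocols. Samples were grouped by the insert in their genotype label.

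Counts were tested in R 4.3.3 with edgeR 4.0.16 (filterByExpr, TMM, robust quasi-likelihood fit, Benjamini-Hochberg adjustment at 0.05), with 3 against 3 libraries in each fit. The filter left 2807 of 15628 gene rows and 129 of 683 repeat rows untested. Repeat fits used library sizes taken from gene counts, and CPM are per 1000000 gene counts. Tables were joined through rows of equal luciferase counts in the same order, with at least 7 luciferase reads. Of 14736 joined gene rows 13106 had a combination of luciferase counts found once, and DUXC and DUX4 values of single rows are given only for these. Joined repeat rows numbered 654. Floors (3 counts over a group) and 95% Poisson intervals cover counting error only.

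Named gene rows were the 5 largest rises and 5 largest falls in each of 3 groups by level, among called rows without overlap whose higher group averaged 1 CPM or more, the 5 most abundant rows, and rows at 0 in 1 group with at least 1 CPM in every library of the other. Named repeat rows were the 5 largest rises and 5 largest falls among called rows averaging 20 counts or more in the higher group, and the 5 with the most counts. The comparison, the rule and the tests were chosen with earlier results of these data known. Alternatives were other scalings, filters, a replicate block, DESeq2 1.42.0 and leaving out each library. Tested on simulated data for DUXC-ALT against luciferase, the gene fit (12949 rows) recovered 83.6% of rows changed 1.5-fold and 100% of those changed 2-fold. The repeat fit (560 rows) recovered 75% and 95%. Changed rows were drawn only from rows averaging at least 20 counts, so recovery at lower levels was not simulated. Every row had the same dispersion, and 12749 gene rows and 500 repeat rows were left unchanged, unlike the real data.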

Additional observations from a re-analysis of the deposited data

Results flagged for a closer look

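Of the gene rows named above, 5 were called in opposite directions with DUXC-ALT and with another factor, and in each the direct edgeR test between the factors passed its threshold. The contrasts with luciferase share their 3 control libraries, so the direct value is the one to read. Gene row 498 was at 0 in DUXC-ALT and at a level at least 136-fold higher in DUXC. Gene row 8879 was higher in DUXC-ALT than in DUXC by 1.81 on the log2 scale, and gene row 414, looked up as a neighbour of rows 412 and 413, by 0.49. Gene rows 412 and 413 were lower in DUXC-ALT than in DUX4, by log2 folds of -4.33 and -4.27.

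The same held for 4 of the named repeat rows. Against DUXC, the direct log2 fold was -1.65 for repeat row 404 and 0.51 for repeat row 17, where the median repeat row stood at -0.91. Against DUX4, it was -2.06 for repeat row 67, -1.85 for repeat row 404 and -1.72 for repeat row 72, where the median repeat row stood at -1.30. With scaling on the repeats themselves, repeat rows 404 and 72 no longer passed the threshold against DUX4, at adjusted p of 0.0528 and 0.133 in edgeR's test. Against luciferase, repeat row 17 lost its call when some single libraries were left out, and repeat row 72 lost its call whichever library was left out.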

How the results depend on the processing

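Against luciferase, 36 of 37 named gene rows kept their direction and side of the threshold under each alternative that gave a value. The exception was gene row 2618. Counts of called gene rows over all levels stayed within 1.5 times the reported ones, at 2612 raised and 2600 lowered with DESeq2 and 2929 to 3221 raised and 3026 to 3237 lowered when libraries were left out. Raised rows of the lowest group by level went from 478 to 263 with DESeq2. Repeat calls moved more, from 10 raised, 70 lowered and 8 lowered past 2-fold to 19, 27 and 5 with TMM on the repeats, 18, 27 and 5 with total gene counts, and 4, 38 and 0 with DESeq2, which gave 233 rows an adjusted p. A minimum of 20 counts left 1 fall past 2-fold, since it removed low rows. Leaving out 1 library gave 3 to 12 raised, 39 to 83 lowered and 4 to 8 lowered past 2-fold. Of 20 named repeat rows 14 changed a call or direction under some alternative. The difference in repeat counts per 100 gene counts, -0.305, became 0.0306 without the repeat row with the most counts and ran from -0.472 to -0.116 when 1 library was left out. Uncalled repeat rows crossed 0: row 300 at 0.0125 with TMM on the repeats and with total gene counts, row 620 from -0.0442 to 0.0632 and row 625 from -0.29 to 0.29 when 1 library was left out. Against DUXC, gene row 4088 ran from -0.0429 to 0.0261. Scaled on the repeats, DUXC-ALT against DUXC gave 195 higher and 194 lower rows, and against DUX4 221 and 213, and leaving out libraries gave 4 to 7 higher rows against DUX4. The cause of the other moves was not tested.

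No shared effect of replicate number was seen, since deviations of same-numbered libraries correlated at 0.00715 to 0.0233. These values cannot tell whether same-numbered libraries were handled together. The replicate block gave 3324 raised and 3309 lowered gene rows and 10 and 71 repeat rows against luciferase. The luciferase level of rows such as 8680 rests on 5 reads, which limits the precision of their folds.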
